A study of Mus musculus with 117 samples.

Results

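The histone genes encode the proteins around which DNA is wrapped, and their chromatin was described in hepatocytes, which make up most of the liver, of 9 inbred mouse strains. The members are the autosomal protein-coding genes whose symbols name a linker histone (H1f followed by a digit) or a clustered core histone (H2ac, H2bc, H3c and H4c). By that rule 67 of the 20665 autosomal protein-coding genes of the RefSeq annotation (GRCm38.p6) were members: 10 for H1, 17 for H2A, 16 for H2B, 12 for H3 and 12 for H4. The gene listed as H4bc24, which lies among the members on chromosome 13, does not match the rule and was not counted.

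The hepatocytes came from female mice 12 weeks old of the classical strains C57BL/6J, DBA/2J, A/J, NZO/HlLtJ, 129S1/SvImJ and NOD/ShiLtJ and the wild-derived strains WSB/EiJ, PWK/PhJ and CAST/EiJ, with no treatment named in the labels. Each strain had 13 libraries of chromatin immunoprecipitation sequencing, which were 4 histone marks (H3K4me1, H3K4me3, H3K27ac and H3K27me3) in each of 3 mice and 1 input library. The deposited files hold 1 chromatin state segmentation per strain, which gives each 200-bp bin a state number from 1 to 14. States of this kind generally stand for recurring combinations of marks. Which marks each number stands for is not given in the sources used here, so states are called by number only. There is no value per mouse and no read depth, so a difference between strains has no replicate error, and every SD is over the 9 strains.

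Most histone protein is made during S phase, when new DNA has to be packed, from replication-dependent genes that lie in dense clusters. These genes are short, mostly lack introns, and give messenger RNAs that end in a stem-loop instead of a poly(A) tail. Many H2A and H2B genes stand head to head and share the stretch between their start sites as a promoter. Most adult hepatocytes rest outside the cell cycle. The linker gene H1f0 and the replacement variants outside the clusters are known to be expressed also in cells that do not divide.

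The 67 genes had a median span of 496 bp, and with 1 kb added on each side they covered 1037 distinct bins, a median of 14 per gene. Of these bins 209 belonged to more than 1 gene, so counts of neighbouring genes rest partly on the same bins. Genes no more than 100 kb apart were put in 1 block. Of the 67 genes, 10 lay in a cluster on chromosome 3 (chr3:96219885-96270192). On chromosome 13, 17 lay in the first block (chr13:21715711-21833475), 5 in the second (chr13:22035122-22043658), 29 in the third (chr13:23531044-23764412) and 2 in the fourth (chr13:23933725-23934913). The 4 solitary genes were the linker genes H1f8 and H1f10 on chromosome 6 and H1f0 and H1f7 on chromosome 15. Autosomal bins as a whole were 76.6% ± 1.47 state 14 (SD, n = 9 strains), 11.1% ± 1.36 state 13, 2.51% ± 0.205 state 1 and 0.41% ± 0.042 state 3. Liver cell markers served as a check of the labelled cell type: state 3 lay within 1 kb of the start site in all 9 strains at 7 of 8 measured hepatocyte genes, 0 of 5 Kupffer cell, 0 of 3 endothelial, 1 of 4 stellate, 0 of 4 bile duct and 0 of 3 lymphocyte genes. In part of the strains it was also found at endothelial Clec4g (6 strains) and Stab2 (4), and at Epcam and Ptprc (1 each). The remaining hepatocyte gene, Cyp2e1, had it in 7. Only 3 of 6 listed endothelial and 3 of 6 lymphocyte markers had a start site to measure. The check therefore does not show that other cells were absent. State 3 within 1 kb of the start site in all 9 strains was also found at 44.1% of all autosomal protein-coding genes with a start site. It is thus not particular to hepatocyte genes.

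State 1 was the state of most histone genes. Over the 603 pairs of a gene and a strain, the most frequent state of the padded span was state 1 in 365 (60.5%), state 8 in 71, state 14 in 63, state 3 in 44, state 12 in 27 and state 5 in 21. State 1 was the most frequent state in all 9 strains for 25 of the 67 genes (37.3%), against 4.13% of all autosomal protein-coding genes and 4.67% of the 2291 genes with a span of at most 2 kb. The 25 genes were 4 of 10 in the chromosome 3 cluster, 1 of 17 in the first block of chromosome 13, 4 of 5 in the second and 16 of 29 in the third. They included H1f1, H1f2, H1f3 and H1f4 for the linker histones, and core genes such as H3c1, H4c1 and H2bc3.

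Few members had no state other than 13 and 14. Only states 13 or 14 in all 9 strains were found at 2 of 67 genes (2.99%), against 14.7% of all genes and 69.7% of genes with a span of at most 2 kb. Both were solitary germ cell genes: H1f8, the oocyte linker histone, and H1f7, a spermatid linker histone. State 3 was present in at least 1 bin in all 9 strains at 23 of 67 genes (34.3%), against 45.9% of all genes and 8.9% of genes with a span of at most 2 kb. It was found in no strain at 19 genes and in 1 to 8 strains at 25.

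The same most frequent state in all 9 strains was kept by 31 of 67 genes (46.3%), below the 64.5% of all genes and the 58.1% of genes with a span of at most 2 kb. By family it was kept by 6 of 10 genes for H1, 7 of 17 for H2A, 9 of 16 for H2B, 4 of 12 for H3 and 5 of 12 for H4. By block it was kept by 4 of 10 genes in the chromosome 3 cluster, 2 of 17 in the first block of chromosome 13, 4 of 5 in the second, 17 of 29 in the third and 2 of 2 in the fourth. In the chromosome 3 cluster all 10 genes had state 1 or state 3 as the most frequent state in every strain, and the genes without a constant state there moved between those 2 states only.

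**Figure D1:**
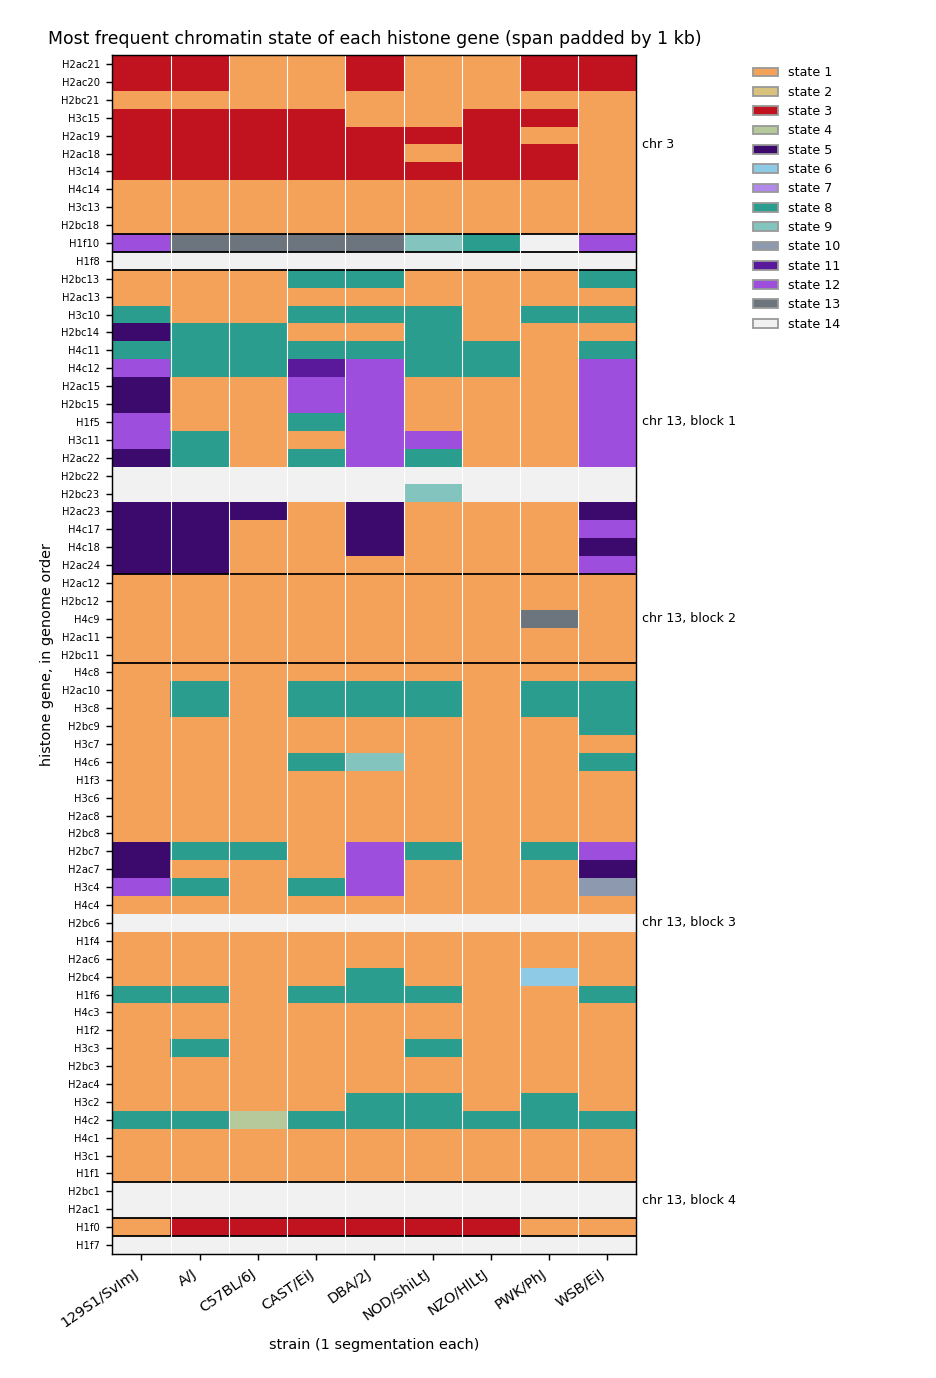
Most frequent state of the padded span of each of the 67 histone genes (rows, in genome order) in each of the 9 strains (columns), 1 colour per state, with black lines between blocks. Orange (state 1) fills most rows, red (state 3) is found in the chromosome 3 cluster and at H1f0, and purple (states 5, 11 and 12) is found mostly in the first block of chromosome 13.

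Around the start sites, histone genes showed a narrow state 3 flanked by state 1. The promoter table held a start site for 62 of the 67 genes, 63 sites in all. The bin of the start site was in state 1 at 36.7% ± 6.37 of the 63 sites (SD, n = 9 strains; lowest 30.2% in A/J, highest 47.6% in NZO/HlLtJ) and in state 3 at 33.3% ± 4.35 (lowest 23.8% in WSB/EiJ, highest 39.7% in C57BL/6J). Over 20085 start sites of all autosomal protein-coding genes the shares were 11.1% ± 0.921 in state 1 and 39.5% ± 1.24 in state 3, so that state 3 was the more frequent of the pair over all genes. The ranges of the 9 strains did not overlap for state 1, and those for state 3 did.

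Where a histone start site was in state 3, the segment was short. In the 9 strains, 15 to 25 start sites of histone genes lay in state 3; their state 3 segments had a median length between 200 and 400 bp by strain and were a single bin in 46.2% ± 7.72 of cases. For all genes the median was 800 bp in every strain and 6.47% ± 0.891 were a single bin. At 12 of the 63 sites the bin was in state 3 in all 9 strains, and at 8 it was in state 1 in all 9. At 38 sites the state of the bin differed between strains. The matching counts over all start sites are not given here, so these describe the 63 sites only.

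**Figure D2:**
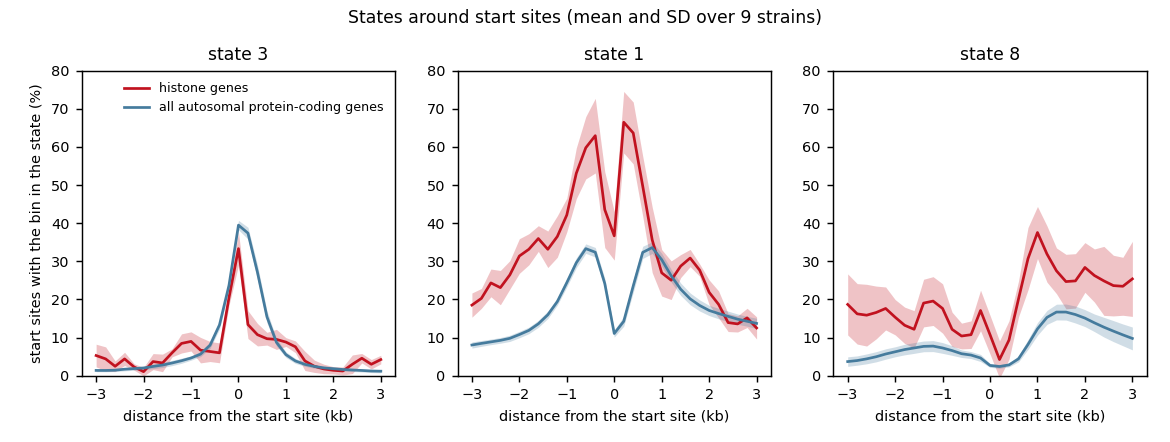
Share of start sites whose bin is in state 3, 1 or 8 (y axis, percent) against the distance from the start site (x axis, kb; positive is into the gene), for 63 histone start sites (red) and all 20085 start sites (blue); lines are means and bands SDs over the 9 strains. The red state 3 peak is narrower than the blue one, and red state 1 is above blue state 1 at the start site, 36.7% against 11.1%.

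The bases before the start sites are given for 6 places that the results below turn on, from RefSeq (GRCm38.p6). They are the whole stretch between the start sites of 3 head-to-head pairs, of which H2ac15 to H2bc15 and H2bc7 to H2ac7 changed state between strains and H2ac11 to H2bc11 kept the states of its start sites. The other 3 are the 150 bases before the starts of H4c12, H2ac18 and H1f0. H4c12 differed most between strains with the 1 kb padding, and H2ac18 had state 3 in every strain. Capitals mark CCAAT or its complement ATTGG, and TATAAA or its complement TTTATA. Pairs are read on the plus strand, single genes on their own strand.

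H2ac15 to H2bc15, chr13:21753913-21754075: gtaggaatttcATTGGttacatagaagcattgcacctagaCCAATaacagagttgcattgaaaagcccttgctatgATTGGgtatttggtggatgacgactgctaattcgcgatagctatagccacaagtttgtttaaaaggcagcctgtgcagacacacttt
H2ac11 to H2bc11, chr13:22042950-22043197: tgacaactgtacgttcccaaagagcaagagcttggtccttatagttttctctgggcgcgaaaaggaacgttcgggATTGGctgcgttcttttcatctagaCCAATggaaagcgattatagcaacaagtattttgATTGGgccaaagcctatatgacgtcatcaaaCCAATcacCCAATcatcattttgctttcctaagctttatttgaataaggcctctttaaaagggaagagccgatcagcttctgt
H2bc7 to H2ac7, chr13:23574208-23574380: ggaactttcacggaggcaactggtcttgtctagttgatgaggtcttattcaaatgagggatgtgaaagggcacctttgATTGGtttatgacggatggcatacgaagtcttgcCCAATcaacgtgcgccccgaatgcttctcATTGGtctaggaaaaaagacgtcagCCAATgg
H4c12, chr13:21750554-21750703, minus strand: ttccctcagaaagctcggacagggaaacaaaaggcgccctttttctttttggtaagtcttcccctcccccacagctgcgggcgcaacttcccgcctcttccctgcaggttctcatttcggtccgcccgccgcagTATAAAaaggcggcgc
H2ac18, chr3:96245347-96245496, plus strand: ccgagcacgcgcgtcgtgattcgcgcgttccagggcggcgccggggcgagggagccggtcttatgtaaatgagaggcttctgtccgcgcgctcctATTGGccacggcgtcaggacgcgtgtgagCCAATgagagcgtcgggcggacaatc
H1f0, chr15:79028062-79028211, plus strand: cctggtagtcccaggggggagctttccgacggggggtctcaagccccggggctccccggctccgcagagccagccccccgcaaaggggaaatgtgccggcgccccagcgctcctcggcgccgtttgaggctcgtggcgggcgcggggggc

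The 163 bases between H2ac15 and H2bc15 hold 3 CCAAT, the 248 between H2ac11 and H2bc11 hold 5, and the 173 between H2bc7 and H2ac7 hold 4. Those before H4c12 hold 1 TATAAA and no CCAAT, those before H2ac18 hold 2 CCAAT, and those before H1f0 hold neither. Over windows from 250 bases before to 50 after the start, and counting both strands, CCAAT was found in 82.5% of the 63 histone windows and in 38.1% of all 20085 windows. At least 2 copies were found in 68.3% and 12.8%. TATAAA was found in 54% and 12.7%, and the octamer ATTTGCAT in 20.6% and 1.67%. No motif contains another, though matches of different motifs may share bases. The windows of the 9 head-to-head pairs of H2A and H2B genes overlap, so the same letters can be counted at both genes.

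The families differed in these letters. Each of the 17 H2A windows and 15 H2B windows held at least 2 CCAAT, 10 of 10 H3 windows held at least 1, and 3 of 11 H4 windows held at least 1. The octamer was found in 6 of 17 H2A and 7 of 15 H2B windows, and in none of the 10 H1, 10 H3 or 11 H4 windows. Because paired windows overlap, the H2A and H2B counts are not separate. By block, CCAAT was found in 8 of 8 windows of the chromosome 3 cluster, 13 of 17 of the first block of chromosome 13, 4 of 5 of the second and 24 of 27 of the third. The median number of CG dinucleotides per window was 21 in the chromosome 3 cluster, 15 in the first block, 11 in the second and 10 in the third, against 14 over all genes. Divided by the number expected from the C and G of each window, the order changed. The medians were then 0.742 in the chromosome 3 cluster, 0.839, 0.746 and 0.656 in the same blocks, and 0.586 over all genes. A match of letters is a description of the window and no measure of binding.

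Some members share long identical stretches in their promoter windows. Only these windows were compared, not the rest of the genes. Among windows more than 600 bases apart, 11 of 63 shared an identical stretch of at least 50 bases with another member's, the longest being 285 of 300 bases between H4c17 and H4c18. The other pairs were H2ac24 and H2bc23 with 233 bases, H3c14 and H3c15 with 231, H2ac18 and H2ac19 with 219, H2ac23 and H2ac24 with 200, and H4c11 and H4c12 with 72. The most frequent state was the same in 8 of 9 strains for H4c17 and H4c18, in 7 for H3c14 and H3c15, in 7 for H2ac18 and H2ac19, in 6 for H2ac23 and H2ac24, in 5 for H4c11 and H4c12 and in 0 for H2ac24 and H2bc23. Of the last pair, H2bc23 has a span of 3788 bp, most often in state 14. How reads that fit more than 1 place were assigned is not given in the sources used here. The states of these genes are therefore uncertain as separate measurements. Members that are alike outside the windows compared may be affected as well, which was not tested.

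Among the blocks of more than 1 gene, divergence between strains was highest in the first block of chromosome 13. For each gene the share of bins that differed was averaged over the 36 pairs of strains. This divergence had a median of 24.1% over the 67 genes, against 19.8% over all genes and 13.3% over genes with a span of at most 2 kb. Of those short genes 69.7% held only states 13 or 14. Over genes with a span of at most 5 kb the median was 20.7%. Median divergence was 56.4% for the 17 genes of the first block, 18.8% for the 5 of the second, 24.1% for the 29 of the third and 9.74% for the 10 of the chromosome 3 cluster. The 90th percentile of all genes was 38.4%, and 21 of the 67 members (31.3%) were above it.

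**Figure D3:**
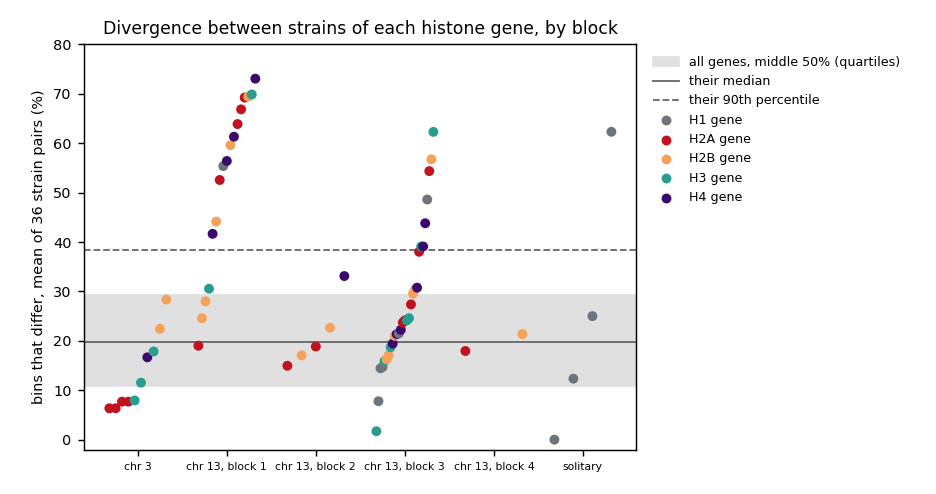
Divergence of each histone gene (points, coloured by family), in percent of bins that differ, averaged over 36 strain pairs, by block; the grey band and line are the quartiles and median of all 20665 genes and the dashed line is their 90th percentile, 38.4%. Most points of the first block of chromosome 13 are above the dashed line, up to 73.1% for H4c12, and all points of the chromosome 3 cluster are below it.

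Agreement between strains, given as Cohen's kappa (1 for identical states, 0 for what the state frequencies alone would give), was 0.643 on average over the histone-gene bins and 0.609 over all autosomal bins. The order turned without the 5 genes with spans over 3 kb (0.55) and with a padding of 5 kb (0.585). It was 0.744 in the chromosome 3 cluster, 0.676 in the third block of chromosome 13, 0.61 in the second and 0.468 in the first. Genome-wide, mean kappa was 0.506 for PWK/PhJ and 0.577 to 0.644 for the other 8 strains.

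In some strains the first block held states that are more frequent on X than on the autosomes. States 5, 7, 10, 11, 12 and 13 took a larger share of X than of the autosomes in 9 of 9 strains, and are called X-enriched here, a grouping made after the histone states had been seen. States 5, 11 and 12 made up 0.0258%, 0.0457% and 0.0753% of autosomal bins. At least 1 of these 3 states was found in at least 1 bin and 1 strain at 26 of 67 histone genes (38.8%), against 20.6% of all genes and 4.89% of genes with a span of at most 2 kb. On autosomes the X-enriched group is mostly state 13, which made up 11.1% of bins. The group took 8.85% ± 5.7 of all histone-gene bins (SD, n = 9 strains). It took 9.7% ± 9.73 of histone start sites and 16.5% ± 1.24 of all start sites, so the histone genes as a set were not higher in the whole group. States 5, 11 and 12 alone were higher, at 5.64% ± 4.73 of all histone-gene bins, from 1.54% to 13% by strain. At start sites, state 5 took 4.76% ± 5.99 against 0.805% ± 0.321 of all start sites. State 12 took 3.7% ± 5.32 against 2.23% ± 0.472, and state 11 took 0.529% ± 0.794 against 0.585% ± 0.154.

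Across the 251 bins of the first block, X-enriched states took 51.8% in 129S1/SvImJ, 18.7% in A/J, 15.9% in C57BL/6J, 20.7% in CAST/EiJ, 46.6% in DBA/2J, 21.5% in NOD/ShiLtJ, 7.57% in NZO/HlLtJ, 0.797% in PWK/PhJ and 55% in WSB/EiJ. The strains 129S1/SvImJ, DBA/2J and WSB/EiJ stood above the other 6, and PWK/PhJ was lowest. In NZO/HlLtJ and PWK/PhJ the whole group was below the 11.1% that state 13 alone took of autosomal bins on average. State 1 ran the other way, from 6.77% in WSB/EiJ, 7.97% in 129S1/SvImJ and 10.8% in DBA/2J to 34.3% in NZO/HlLtJ and 34.7% in PWK/PhJ. In the 349 bins between the genes of the block, X-enriched states took between 0% and 8.31%, less than in the gene bins in 9 of 9 strains. In the 50 kb on each side of the block they took 1.2% to 27.4%, more than in the gene bins in A/J (23.8%), NOD/ShiLtJ (27.4%) and PWK/PhJ (2.4%) and less in the other 6. The mean over strains in the gene bins, 26.5%, was 17% with a padding of 5 kb. In the chromosome 3 cluster they took 0% in all 9 strains, although the 50 kb on each side of that cluster held 27.8% to 38.4%.

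**Figure D4:**
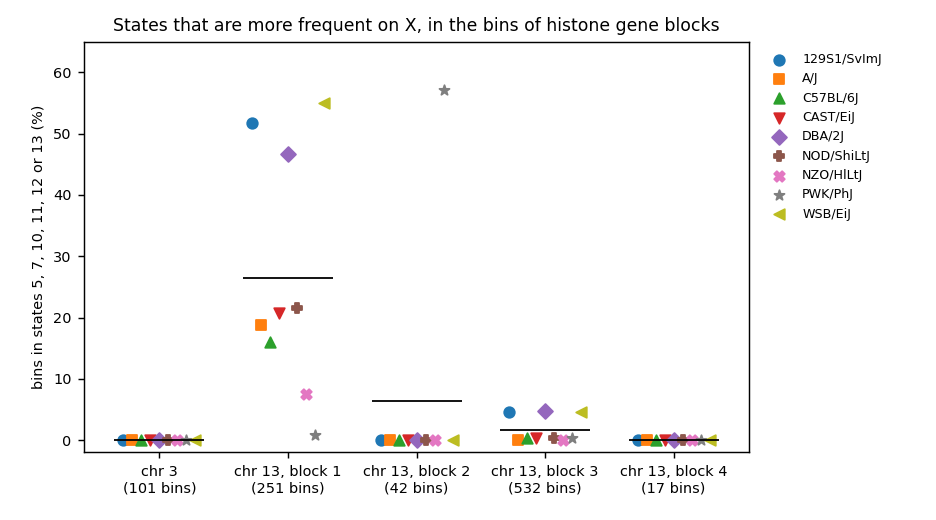
Share of bins in the X-enriched states 5, 7, 10, 11, 12 or 13 (y axis, percent) in each strain (symbols) for 5 blocks of histone genes (x axis), with the mean as a line. In the first block of chromosome 13 the strains spread from 0.797% to 55%, in the second PWK/PhJ alone is above 0 at 57.1%, and the chromosome 3 cluster is at 0 in every strain.

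At some genes the most frequent state changed between the X-enriched states and the others. At 16 of 67 genes (23.9%) the most frequent state was X-enriched in at least 1 strain and was 1, 2, 3, 4, 6, 8 or 9 in at least 1 other, against 0.774% of all genes and 2.05% of genes with a span of at most 2 kb. Among the 196 other protein-coding genes within 500 kb of a member, 1 did so, Galr3, a galanin receptor gene near H1f0. Within 1 kb of the start site the same held for 18 of 62 histone genes, against 4.96% of all genes. The 16 genes were 11 of 17 in the first block, 1 of 5 in the second, 3 of 29 in the third, and H1f10. Of the 11 in the first block, an X-enriched state was on top at 11 in 129S1/SvImJ, 10 in WSB/EiJ, 9 in DBA/2J, 4 in A/J, 3 in CAST/EiJ, 1 in C57BL/6J, 1 in NOD/ShiLtJ and 0 in NZO/HlLtJ and PWK/PhJ.

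With the 1 kb padding, H4c12 (chr13:21750145-21750553), a gene for histone H4, had the highest divergence, 73.1%. Of its 13 bins, X-enriched states took 13 in 129S1/SvImJ, 0 in A/J, 0 in C57BL/6J, 12 in CAST/EiJ, 8 in DBA/2J, 3 in NOD/ShiLtJ, 0 in NZO/HlLtJ, 0 in PWK/PhJ and 12 in WSB/EiJ. The other bins were mostly state 8, except in PWK/PhJ, where state 1 took 10. Its start site was in state 3 in C57BL/6J, NZO/HlLtJ and PWK/PhJ, in state 12 in 129S1/SvImJ, DBA/2J and WSB/EiJ, in state 5 in CAST/EiJ, in state 8 in A/J and in state 1 in NOD/ShiLtJ.

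The head-to-head pair H2ac15 (chr13:21753377-21753912) and H2bc15 (chr13:21754076-21754553), for H2A and H2B, changed together. Of the 13 bins of H2bc15, X-enriched states took 13 in 129S1/SvImJ, CAST/EiJ, DBA/2J and WSB/EiJ, 5 in NOD/ShiLtJ, 2 in A/J and 0 in C57BL/6J, NZO/HlLtJ and PWK/PhJ. For H2ac15 they took all 14 bins in the same 4 strains, 7 in NOD/ShiLtJ, 2 in A/J and 0 in the other 3. Both start sites were in state 5 in 129S1/SvImJ, in state 12 in CAST/EiJ, DBA/2J and WSB/EiJ, and in state 1 in the other 5 strains. The padded spans of the pair overlap, so these are not separate measurements. State 3 was found in no bin of either gene in any strain.

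H3c11 (chr13:21782915-21783397), for histone H3, had X-enriched states in 13 of 13 bins in 129S1/SvImJ, DBA/2J and WSB/EiJ, 8 in NOD/ShiLtJ and 0 in the other 5 strains. H2ac22 (chr13:21786774-21787248), for H2A, had them in 14 of 14 bins in the same 3 strains, 3 in A/J, 3 in NOD/ShiLtJ, 2 in NZO/HlLtJ, 1 in C57BL/6J, 1 in CAST/EiJ and 0 in PWK/PhJ. In 129S1/SvImJ, DBA/2J and WSB/EiJ both genes lay in 1 unbroken run of X-enriched states of 12.8, 13.2 and 12.8 kb, which also held bins of the linker gene H1f5 and of H2bc22. The longest such run of the block in CAST/EiJ was elsewhere, 7.4 kb over H4c12, H2ac15 and H2bc15. In A/J, C57BL/6J, NOD/ShiLtJ and NZO/HlLtJ the longest run lay over H2bc22 only, 3800 to 4400 bp. The H2bc22 part of the long run is thus not particular to 129S1/SvImJ, DBA/2J and WSB/EiJ.

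At the far end of the block, H2ac23 (chr13:21810367-21810918) carried state 5 instead of state 12. X-enriched states took 12 of its 14 bins in 129S1/SvImJ, 12 in A/J, 11 in C57BL/6J, 0 in CAST/EiJ, 13 in DBA/2J, 0 in NOD/ShiLtJ, 0 in NZO/HlLtJ, 0 in PWK/PhJ and 14 in WSB/EiJ. C57BL/6J and A/J, low at H4c12 and H3c11, were thus high here. The 4 strains at 0 had 9 to 12 bins of state 1. The H4 genes H4c17 and H4c18 close by were most often in state 5 in 129S1/SvImJ, A/J and DBA/2J, and in state 1 in C57BL/6J and the same 4 strains.

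**Figure D5:**
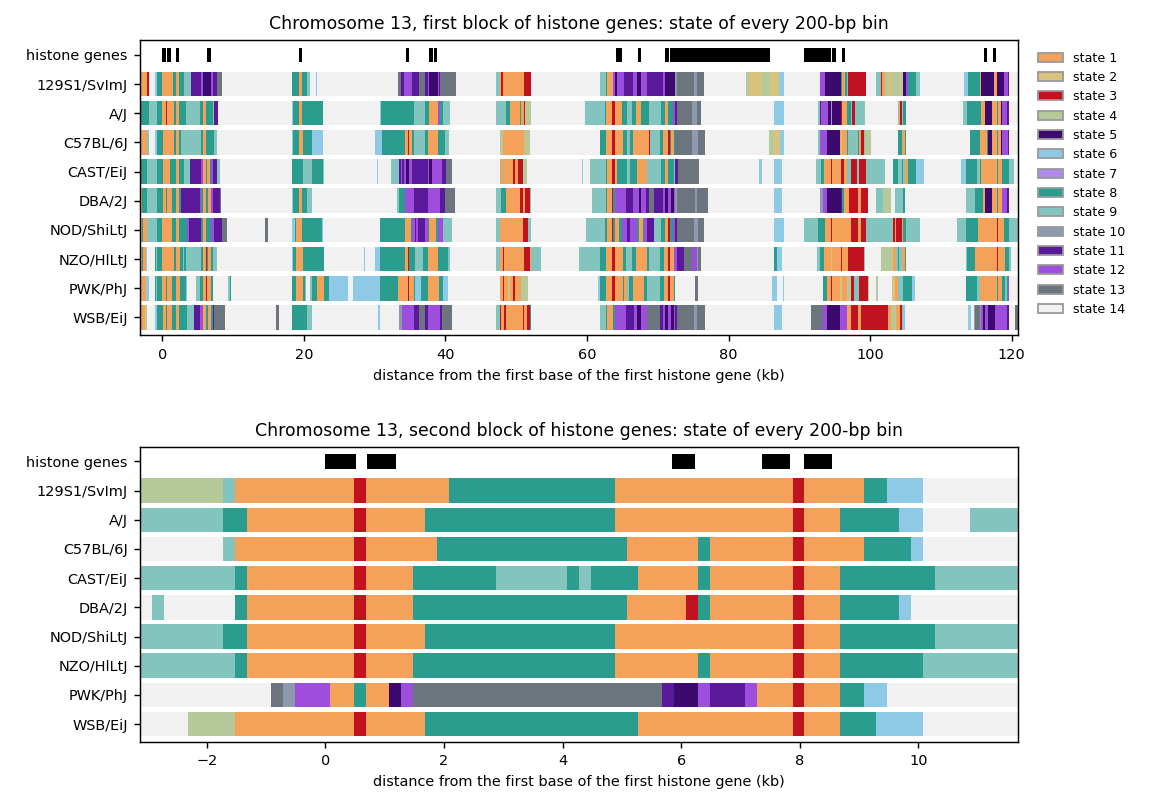
State of every 200-bp bin (colours) in the 9 strains (rows) along the first and second blocks of histone genes on chromosome 13, against the distance in kb from the first base of the first histone gene, with the genes as black boxes on top. Purple and dark grey stretches (X-enriched states) interrupt the orange and green of states 1 and 8 over the same genes in 129S1/SvImJ, DBA/2J and WSB/EiJ in the first block, and in PWK/PhJ alone in the second.

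Bin by bin, the X-enriched states stood opposite particular states. Where 1 strain had state 5 in the first block and another strain had a state that is not X-enriched, that state was state 1 in 85.9% of 617 such comparisons. State 12 stood opposite state 1 in 49.1% and state 8 in 44.4%, state 11 opposite state 8 in 46% and state 9 in 39.7%, and state 13 opposite state 14 in 65%. Over all autosomes, state 5 stood opposite state 1 in 47.1%, state 12 opposite state 8 in 51.7%, state 11 opposite state 9 in 42.9% and state 13 opposite state 14 in 99.2%.

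In the second block PWK/PhJ was the high strain. Its 42 bins held X-enriched states in 57.1% in PWK/PhJ, the strain lowest in the first block, and in 0% in each of the other 8. State 1 took 23.8% there in PWK/PhJ and up to 83.3% in 129S1/SvImJ. H4c9 (chr13:22040960-22041362), for H4, had X-enriched states in 13 of 13 bins in PWK/PhJ and in 0 of 13 in the other 8, where state 1 took 9 to 12. The longest X-enriched run in PWK/PhJ was 6.2 kb long and ended before the first base of the H2ac11 and H2bc11 pair, whose start sites were in states 1 and 3 in all 9 strains. In PWK/PhJ, X-enriched states took 57.1% of the padded span of H2ac12 and 61.5% of that of H2bc12. They took 38.5% of that of H2ac11 and 14.3% of that of H2bc11. Mean kappa with the other strains over the block was 0.138 for PWK/PhJ and 0.539 to 0.722 for the others. The 50 kb on each side held X-enriched states in 35.2% in PWK/PhJ and 26.4% to 42.6% in the others.

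In the third block X-enriched states were rarer. They took 4.51% of the 532 bins in 129S1/SvImJ, 4.7% in DBA/2J and 4.51% in WSB/EiJ, and 0% to 0.376% in the other 6 strains. The 3 genes that switched were neighbours, H2bc7, H2ac7 and H3c4, and they did so in the same 3 strains. H3c4 (chr13:23575763-23576266), for H3, had X-enriched states in 13 of 14 bins in 129S1/SvImJ, 13 in DBA/2J, 10 in WSB/EiJ, 2 in NOD/ShiLtJ and 0 in the other 5. Over all 16 switching genes, 13 had an X-enriched state on top in each of 129S1/SvImJ, DBA/2J and WSB/EiJ, and 1, H4c9, had it in PWK/PhJ.

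Elsewhere in the third block, strains differed between states 1 and 8. H2ac10 and H3c8, side by side, were most often in state 1 in 129S1/SvImJ, C57BL/6J and NZO/HlLtJ and in state 8 in the other 6. H4c2, for H4, was most often in state 8 in 8 strains and in state 4 in C57BL/6J. H3c1 was the most alike over strains in this block, with a divergence of 1.71%. H2bc6, whose annotated span of 37455 bp is far longer than its neighbours', was in state 14 most often in all 9 strains.

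The chromosome 3 cluster was the most alike over strains. State 1 took 51.9% ± 3.61 of its 101 bins, state 3 25.6% ± 2.5 and state 8 15% ± 2.24 (SD, n = 9 strains). State 3 was present in all 9 strains at 8 of its 10 genes. H2ac18 (chr3:96245497-96246052), for H2A, had 8 of 14 bins in state 3 in 129S1/SvImJ, A/J, C57BL/6J, DBA/2J, NZO/HlLtJ and PWK/PhJ, 9 in CAST/EiJ, 7 in NOD/ShiLtJ and 6 in WSB/EiJ, and state 1 in the rest. H2ac19, whose promoter window shares 219 bases with that of H2ac18, had 8 in 7 strains, 7 in PWK/PhJ and 5 in WSB/EiJ. WSB/EiJ was lowest at both. Divergence was 6.35% for each gene.

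Linker histone genes outside the clusters ranged from state 3 to state 14. H1f0 (chr15:79028212-79030504), the replacement linker histone of resting cells, held only states 1 and 3. State 3 took 9 of its 22 bins in 129S1/SvImJ, 12 in A/J, 12 in C57BL/6J, 12 in CAST/EiJ, 19 in DBA/2J, 16 in NOD/ShiLtJ, 14 in NZO/HlLtJ, 7 in PWK/PhJ and 7 in WSB/EiJ. The mean of 12 bins was the highest number of state 3 bins among the 67 genes, but H1f0 has more bins than the median of 14. As a share of bins, state 3 took 54.5% at H1f0, 55.6% at H2ac18 and 54% at H2ac19. The start site of H1f0 was in state 3 in 9 of 9 strains.

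H1f10 (chr6:87980421-87981482), another linker variant, had no bin in state 3 in any strain and a divergence of 62.3%. With no padding its divergence was 85.2%, above the 75% of H4c12, and with a padding of 5 kb it was 26.4%. X-enriched states took 16 of its 16 bins in 129S1/SvImJ, A/J, C57BL/6J and CAST/EiJ, 9 in DBA/2J, 5 in NOD/ShiLtJ, 9 in NZO/HlLtJ, 7 in PWK/PhJ and 15 in WSB/EiJ. State 9 was most frequent in NOD/ShiLtJ, with 6 bins, and state 14 in PWK/PhJ, with 7. In NZO/HlLtJ states 8 and 11 were tied at 5 bins each and state 8 was taken by the rule for ties.

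The germ cell histone genes were mostly in state 14, except for H1f6. H2bc1 and H2ac1, the testis H2B and H2A, had state 14 in 6 to 13 and 9 to 12 of their 13 bins, and their start sites were in state 14 in 9 of 9 strains. The low value of 6 was that of H2bc1 in NOD/ShiLtJ, where state 4 took 5 bins. H1f8 had state 14 in 38 of 38 bins in all strains. H1f7 had state 14 in 18 of 18 bins in 6 strains and in 13 or 14 in 129S1/SvImJ, CAST/EiJ and NOD/ShiLtJ, with state 13 in the rest. H1f6 (chr13:23695811-23696545), the testis linker histone, lies inside the third block and had no bin of state 13 or 14. It was most often in state 8 in 6 strains and in state 1 in C57BL/6J, NZO/HlLtJ and PWK/PhJ.

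Among the 62 genes with a start site there were 9 pairs of H2A and H2B genes with start sites facing away from each other, 163 to 280 bases apart. H2bc21, next to H2ac20 on chromosome 3, and H2bc4, next to H2ac6, had no start site and could not be assessed. The bins of the 2 start sites had the same state in all 9 strains at 5 pairs (H2bc13 and H2ac13, H2ac15 and H2bc15, H2ac8 and H2bc8, H2bc7 and H2ac7, H2bc1 and H2ac1). At H2ac22 and H2bc22 it was the same in 5 strains and at H2bc23 and H2ac23 in 4. In the second block it was the same in 0 of 9 strains at both pairs: in 8 strains H2ac12 was in state 3 beside H2bc12 in state 1, and in 9 H2bc11 was in state 3 beside H2ac11 in state 1. At H2ac8 and H2bc8, and at H2bc7 and H2ac7, both start sites fall in the same bin, so their equal states were fixed in advance. The start sites of the other pairs lie in different bins, though close enough for a single segment to cover both.

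Other genes of the pathway were measured within 1 kb of their start sites, where state 3 in all 9 strains was found at 17 of 62 histone genes, against 44.1% of all genes, and only states 13 or 14 at 2 of 62, against 22.8%. State 3 in all 9 strains was found at 8 of 9 replication-independent histone variants, 15 of 17 genes of histone gene expression, 9 of 11 histone chaperones and 5 of 17 genes of S phase and proliferation. Npat, which activates histone transcription in S phase, Slbp, which binds the stem-loop, and H3f3a and H2az1, which encode replacement variants, had it. Among the chaperones Chaf1a, a subunit that deposits new H3 and H4 at replication, had state 3 in 4 strains and Chaf1b in 7. The S phase genes Top2a, Cdk1 and Cdc6 had it in 0 strains, with state 8 most frequent in 8, 9 and 8 strains. Median divergence in this window was 16.9% for the variants, 15.7% for histone gene expression, 17.9% for the chaperones, 25.8% for the S phase genes, 20.8% for the histone genes and 18.2% for all genes. Of the listed genes, Cstf2, Atrx and Pola1 lie on X, whereas the values for all genes are autosomal.

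Bins in which a strain differed from a state shared by the other 8 made up 1.82% of the histone-gene bins on average per strain and 1.65% of autosomal bins. Among histone-gene bins the share was highest in PWK/PhJ (3.95%) and NOD/ShiLtJ (3.76%) and lowest in C57BL/6J (0.579%). Genome-wide PWK/PhJ also had the highest share, 4.56%, and C57BL/6J the lowest, 0.647%. The same state in all 9 strains was found at 41.3% of the 1037 histone-gene bins and 60.8% of autosomal bins. Of the histone-gene bins, 81.4% had a state other than 14 in at least 1 strain, and 27.8% of those had the same state in all 9 strains, against 12% of the 44.6% of autosomal bins of that kind.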

How the data were processed

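Chromatin immunoprecipitation libraries of hepatocytes of 9 strains were grouped by the strain in their labels. Per the file headers, each deposited file is the authors' segmentation of 1 strain, in which column 4 is a category, the state number of each interval. The submitters' processing notes name FastQC 0.11.5, MACS 1.4.2 and the build mm10. The aligner and the segmentation tool are not given in the sources used here.

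Intervals were cut into 200-bp bins. Gene spans and start sites came from RefSeq (GRCm38.p6), spans were padded by 1 kb, and ties in the most frequent state went to the lower number. No test between strains or gene sets was run, since each strain has 1 segmentation; Dixon's ratio was used only to find a strain far from the others. Values are set beside all autosomal protein-coding genes and those with a span of at most 2 kb. The members and gene lists were chosen with earlier results of these data known, and the X-enriched grouping and the count of switching genes were made after their states were seen. Genes were named by divergence (the 6 highest and the 8 highest with differing most frequent states), by state 3 bins, as germ cell or solitary linker genes, or as examples chosen after their values were seen. Python 3.11.15, numpy 2.4.6 and matplotlib 3.10.9 were used. The functions were tested on simulated states, recovering 11 of 11 known quantities. Protein sequences and groups of identical proteins were not analysed here.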

Additional observations from a re-analysis of the deposited data

Results flagged for a closer look

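Of 24 sets of 9 strain values examined for a strain far from the others (by Dixon's ratio of gap to range), 4 had such a strain, and chance alone flags about 1 in 20. X-enriched states took 57.1% of the bins of the second block of chromosome 13 in PWK/PhJ and 0% in the other 8 strains. Over the same bins, mean kappa with the other strains was 0.138 for PWK/PhJ and 0.539 to 0.722 for the others, and genome-wide PWK/PhJ was also the lowest at 0.506. State 5 took 5.69% of histone-gene bins in 129S1/SvImJ, against 0% to 2.8% in the others. State 7 took 0.0964% in A/J, which is a single bin, and 0% in the others.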

How the results depend on the processing

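Of 168 alternative values of 11 results, 136 stayed within the SD over strains or, for counts, within 1.5 times, and 32 did not. The shares of states depend on the bins counted, because 5 genes with spans over 3 kb hold many of them. State 3 (6.96%) became 4.51% with a padding of 5 kb, 10.4% with each gene weighted equally, 11.4% within 1 kb of the start site and 10.4% without the 5 long genes, a setting added after seeing the data. State 1 (32.9%) became 21.5%, 45.2%, 49.3% and 45% in the same order. State 13 (2.65%) became 1.54% with genes weighted equally and 1.14% near the start site. State 14 (26.5%) became 38.1% with no padding, 36% with 5 kb, 9.41% with genes weighted equally, 23.2% in the large clusters only, 7.05% near the start site, 29.1% merged with state 13 and 6.6% without the long genes. Genes with state 3 in all 9 strains (23) became 14 with no padding, 37 with 5 kb, 9 when at least 2 bins were asked for and 9 after smoothing single-bin segments. Genes with only states 13 or 14 (2) became 1 with 5 kb and 1 without the long genes. Genes with a constant most frequent state (31) became 10 with 5 kb. Median divergence (24.1%) became 20.4% with no padding, 36.9% with 5 kb, 30.9% as a mean and 15.5% when a match within 1 bin counted. Kappa (0.643, autosomes 0.609) became 0.683 with no padding, and fell below the autosomes at 0.585 with 5 kb and 0.55 without the long genes. Leaving out each strain in turn gave median divergences of 23.9% to 25.5%, the upper without NOD/ShiLtJ; 23 to 26 genes with state 3 in all strains; and 15 to 16 switching genes of 16. X-enriched states in the first block (26.5%) ranged from 23% to 29.7% with a strain left out, and were 17% with a padding of 5 kb and 19.5% without state 13. Single genes were less steady. Of 45 alternative values of the divergence of 15 named genes, 20 moved by more than the SD over strains. H3c11 (69.9%) became 56.5% with no padding, and H1f10 (62.3%) became 85.2% with no padding and 26.4% with 5 kb. No 2 members had identical promoter windows, so that alternative was not run. Reads behind each state are unknown, so no depth limit can be given. Causes of these changes other than the bins counted were not tested.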
